A study of Homo sapiens with 20 samples.

Results

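NR4A1, NR4A2, NR4A3, IER2, IER3, DUSP1, DUSP2, DUSP5, KLF6 and ZFP36 are response genes whose transcripts are known to rise quickly when lymphocytes are stimulated. They were taken from the deposited counts by gene symbol, and all 10 were found among the 58288 genes listed in each library. The counts came from polyadenylated RNA of 20 libraries of DOHH2 and U2932, a pair of established human lines of diffuse large B cell lymphoma. Cells were exposed for 8 h or 18 h to a compound named only TK in the labels, or to DMSO. DOHH2 had 3 DMSO and 3 TK libraries at 8 h, and 2 DMSO (replicates 1 and 3) and 3 TK libraries at 18 h. U2932 had 3 DMSO and 2 TK libraries at 8 h, and 1 DMSO (replicate 2) and 3 TK libraries at 18 h. The dose of TK is not given in the sources used here. Each line is 1 cell population, and nothing in the labels says whether replicates came from distinct cultures, so p-values reflect only the spread between these libraries, which may be technical. The question of the series was how transcription differs between TK and DMSO in each line.

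The NR4A genes encode orphan nuclear receptors, transcription factors whose activity is set largely by how much of them is made, and which B cells make after antigen receptor signals. The DUSP genes encode dual-specificity phosphatases that remove activating phosphates from MAP kinases and so limit the signal that induced them. IER2 and IER3 are immediate early genes, KLF6 is a zinc finger transcription factor, and ZFP36 (tristetraprolin) binds AU-rich elements of messenger RNAs and speeds their decay.

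The libraries held 30363255 to 52275430 counts in genes. A pair of libraries stood apart. Reads lacking a unique alignment made up 56.6% of all counts of DOHH2 TK 18 h replicate 1 and 20.7 to 34.3% of those of the other 19 libraries. The mitochondrial share of counts in genes was 3.29% in the TK 8 h replicate 1 of DOHH2 and 5.06 to 8.08% elsewhere. B cell markers were present in both lines, with summed levels of 806 to 1481 CPM (a gene's counts scaled to library size with TMM factors) in DOHH2 and 2352 to 3010 CPM in U2932. The T cell list (5 genes) summed to at most 1.18 CPM in DOHH2 and 7.43 CPM in U2932, the NK list (3 genes) to at most 1.76 and 1.73 CPM, and the myeloid list (5 genes) to at most 0.979 and 1.91 CPM, with CD3D at 0 in every DOHH2 library. The fibroblast list (3 genes) reached 30.8 CPM in DOHH2, nearly all of it COL1A1, and 4.77 CPM in U2932. DOHH2 is usually classed as a germinal centre type lymphoma and U2932 as an activated type, but BCL6, a germinal centre marker, had a median of 0.0597 CPM in the libraries labelled DOHH2 and 384 CPM in those labelled U2932. The other 3 germinal centre markers (MME, MYBL1 and LMO2) also had lower medians in DOHH2. For MME the libraries overlapped widely, with 18.4 to 53.8 CPM in DOHH2 and 31.2 to 54.0 CPM in U2932. The 4 activated type markers were split: CCND2 (118 against 0.143 CPM) and IRF4 (805 against 366 CPM) were higher in DOHH2, and FOXP1 (6.78 against 44.7 CPM) and PIM1 (39.9 against 116 CPM) were higher in U2932. DOHH2 and U2932 therefore stand below for the libraries so labelled, and every difference between the lines rests on those labels.

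In GENCODE v29 (GRCh38) NR4A1 lies on chromosome 12 (52022832 to 52059507, plus strand), NR4A2 on 2 (156324432 to 156342348, minus) and NR4A3 on 9 (99821855 to 99866891, plus). DUSP1 lies on chromosome 5 (172768090 to 172771195, minus), DUSP2 on 2 (96143166 to 96145440, minus) and DUSP5 on 10 (110497838 to 110511544, plus). KLF6 lies on chromosome 10 (3775996 to 3785281, minus), ZFP36 on 19 (39406813 to 39409412, plus), IER2 on 19 (13150415 to 13154908, plus) and IER3 on 6 (30743199 to 30744554, minus). Values below are whole-gene counts as deposited, with no split by isoform. NR4A1, IER2, IER3 and DUSP1 overlap a gene on the opposite strand (AC025259.3, AC011446.2, IER3-AS1 and AC022217.3). Whether counting used strand is not given in the sources used here. Whether the antisense partners affected the counts of these genes is therefore not known.

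The RefSeq promoter table (GRCh38.p14) had entries for 7 of the 10 genes, 8 entries in all, and the 250 bases before each start were searched on both strands. NR4A2, DUSP5 and IER3 had no entry. The NR4A3 and DUSP1 windows are shown because they alone among the 8 held the cyclic AMP response element, the site of CREB family factors, or its core. Capitals mark the full element TGACGTCA and the core TGACGT, which lies inside it. NR4A3 is at chr9:99821635-99821884, plus strand, and DUSP1 at chr5:172771196-172771445, minus strand.
NR4A3: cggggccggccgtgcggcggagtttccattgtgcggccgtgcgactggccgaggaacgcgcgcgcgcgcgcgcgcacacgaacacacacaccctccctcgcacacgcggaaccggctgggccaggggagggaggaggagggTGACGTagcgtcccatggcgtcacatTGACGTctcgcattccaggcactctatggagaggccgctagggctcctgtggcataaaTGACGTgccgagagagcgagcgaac
DUSP1: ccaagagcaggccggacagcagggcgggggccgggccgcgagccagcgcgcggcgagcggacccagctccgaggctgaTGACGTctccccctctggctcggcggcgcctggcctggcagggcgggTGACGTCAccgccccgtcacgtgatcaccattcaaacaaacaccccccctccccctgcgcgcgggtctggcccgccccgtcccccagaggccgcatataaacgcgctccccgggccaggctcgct
The NR4A3 window held 3 matches to the core, at -109 to -104, -83 to -78 and -25 to -20 from the start, and 70 of 35116 RefSeq promoter windows of the same length (0.199%) held at least 3. The DUSP1 window held the full element at -125 to -118, which reads as the core on either strand, and 1 further core match at -172 to -167. Counted on both strands these are also 3 core matches, so the DUSP1 window is among the 70. The cutoff of 3 was taken from the NR4A3 window itself. The full element was found in 1.65% and the core in 7.10% of all windows, and the core was added to the search after the sequences had been read. The CArG box of serum response factor (1.16% of all windows), the AP-1 site TGANTCA (6.57%), the ETS site CCGGAAGT (3.42%) and the NR4A site AAAGGTCA (1.05%) were in none of the 8. The GC box GGGCGG was in 6 of them, and in 42.6% of all windows. A match describes these letters and is no measurement of binding.

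Per kilobase of exons, ZFP36 and DUSP2 had the highest levels in DOHH2, with medians over its 11 libraries of 42.0 and 32.0 CPM per kb. DUSP5 (13.4), IER2 (11.6), NR4A1 (3.66), DUSP1 (2.59), KLF6 (2.43), NR4A2 (0.599) and NR4A3 (0.175 CPM per kb) followed. In U2932, over 9 libraries, the order was DUSP2 (46.6), IER2 (12.8), ZFP36 (12.7), KLF6 (3.94), NR4A1 (3.69), DUSP1 (2.46), DUSP5 (0.856), NR4A3 (0.749) and NR4A2 (0.0224 CPM per kb). Among neighbours in these orders the ranges over libraries overlapped for 4 of 8 pairs in DOHH2 and for 4 of 8 in U2932. In DOHH2 these were ZFP36 and DUSP2, DUSP5 and IER2, NR4A1 and DUSP1, and DUSP1 and KLF6. In U2932 they were IER2 and ZFP36, KLF6 and NR4A1, NR4A1 and DUSP1, and DUSP5 and NR4A3. The ranges pool treatments and times and do not compare the genes of a pair within the same library. Whether these neighbours differ within libraries was not tested. IER3 was close to 0 throughout: it had a count in 4 of 11 DOHH2 libraries (at most 7 counts) and in 3 of 9 U2932 libraries (at most 19 counts). Its 19 counts were all in U2932 TK 8 h replicate 1, while the other TK library at 8 h had 0. IER3 was therefore below the filter on low counts, and the tests below cover the other 9 genes among 16478 tested.

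**Figure D1:**
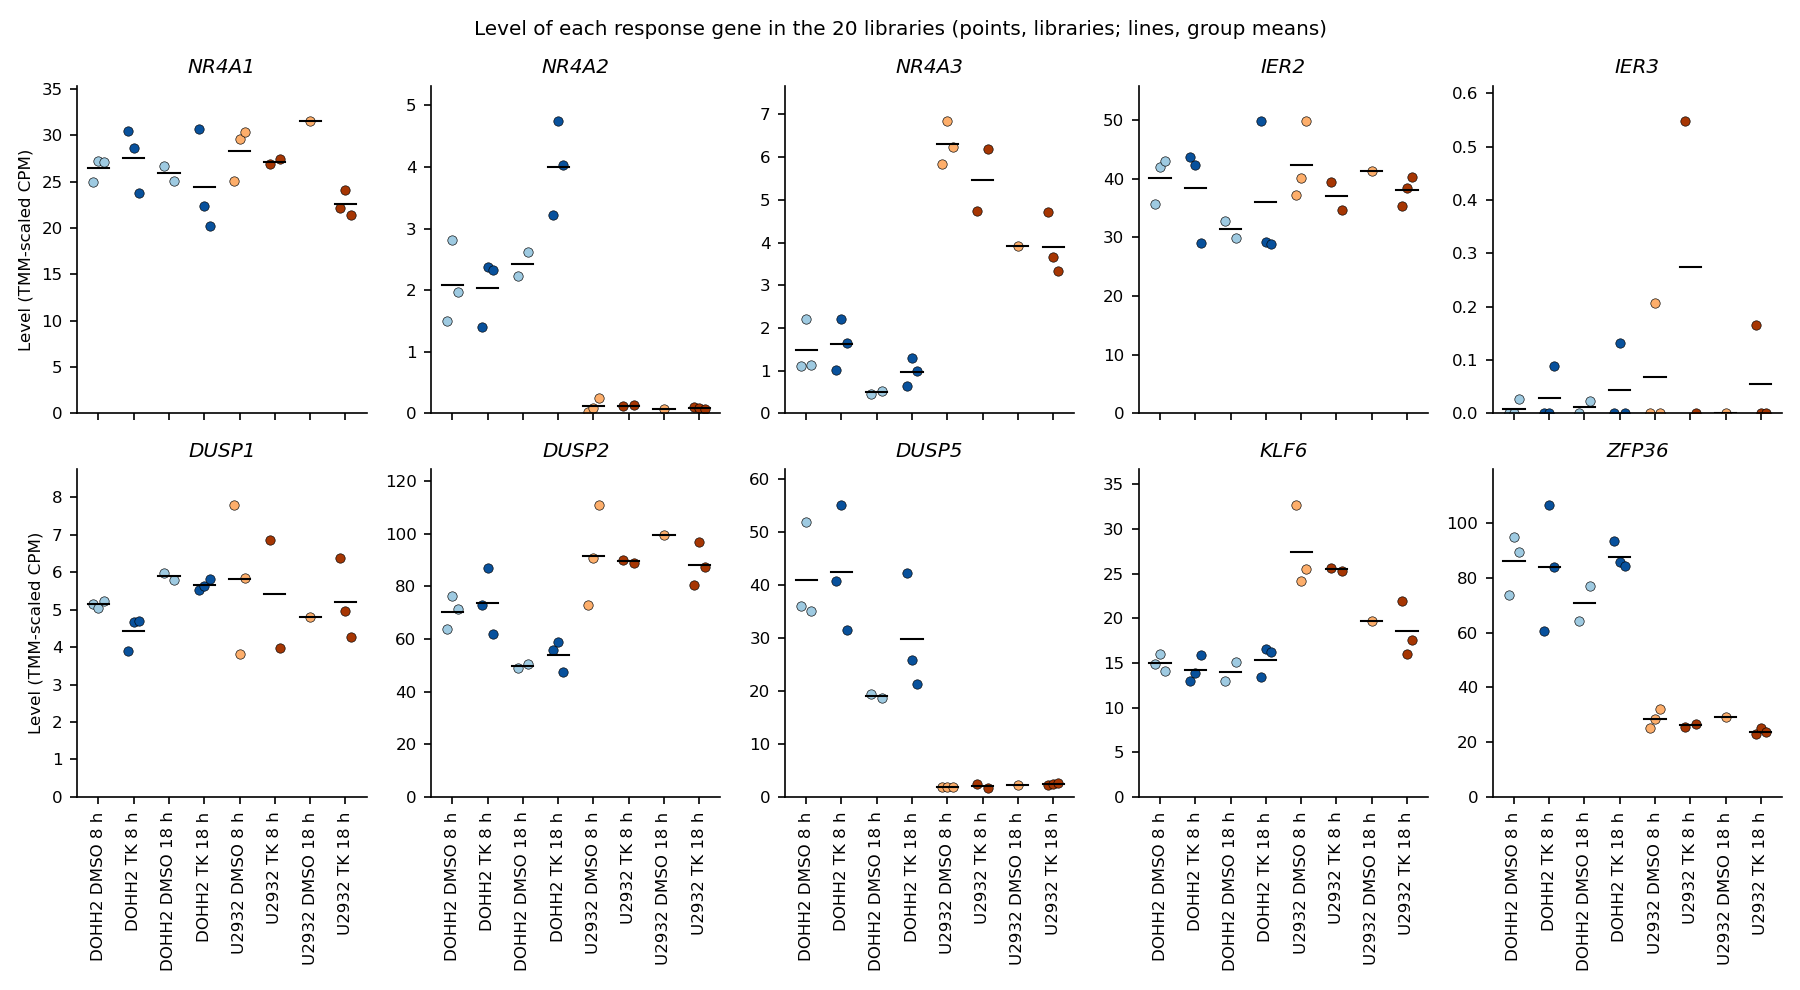
Levels of the 10 genes (TMM-scaled CPM, y axes from 0 and different for each gene) in the 8 groups of line, treatment and time; points are libraries and lines are group means. NR4A2, DUSP5 and ZFP36 are higher in every DOHH2 library than in any U2932 library, and NR4A3 is lower. The share of all genes so separated was not counted.

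The main differences among these genes were between the lines. In DMSO at 8 h, 6 of the 9 genes tested passed an adjusted p of 0.05 with edgeR's quasi-likelihood test (3 higher and 3 lower in DOHH2). Of all genes tested 67.8% passed, so the members' share was near the background. The members' median log2 difference was -0.10, beside -0.03 over all genes. NR4A2, DUSP5 and ZFP36 were higher in DOHH2, and NR4A3, KLF6 and DUSP2 were lower. Where groups are said below not to overlap, the share of all genes with no overlap was not counted.

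Within the NR4A family the lines held opposite second members. NR4A1 (Nur77), the family's most abundant gene in both, had 25.0, 27.2 and 27.1 CPM in the DOHH2 DMSO 8 h libraries and 25.1, 29.6 and 30.3 CPM in those of U2932. In such bulk RNA, fewer expressing cells and less RNA per cell cannot be told apart. The NR4A1 values overlapped, and the log2 difference was -0.10 (SE 0.14, 95% interval -0.40 to 0.20, adjusted p = 0.550 with edgeR). NR4A2 (Nurr1) had 1.50, 2.81 and 1.97 CPM in DOHH2 and 0.0287, 0.0888 and 0.246 CPM in U2932, where these are 1, 3 and 9 counts. The lowest DOHH2 library lay above the highest of U2932, and the log2 difference was 4.06 (SE 0.42, interval 3.19 to 4.93, adjusted p = 2.95e-08 with edgeR), a 16.7-fold higher level. With so few counts in U2932 the size was uncertain: without U2932 DMSO 8 h replicate 3, the library with 9 counts, the level was 34.2-fold higher (log2 difference 5.10). NR4A3 (NOR1) went the other way, with 1.11, 2.21 and 1.13 CPM in DOHH2 and 5.83, 6.84 and 6.23 CPM in U2932. It was 4.18-fold lower in DOHH2 (log2 difference -2.06, SE 0.29, adjusted p = 2.27e-06 with edgeR), again with no overlap. Per kilobase, NR4A2 was above NR4A3 in each of the 11 DOHH2 libraries (0.353 to 1.20 against 0.0725 to 0.350 CPM per kb), and NR4A3 was above NR4A2 in each of the 9 U2932 libraries (0.527 to 1.08 against 0.00723 to 0.0620 CPM per kb).

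Among the phosphatases, DUSP5, a nuclear enzyme that acts on ERK, differed most between the lines. It had 35.9, 51.8 and 35.0 CPM in DOHH2 in DMSO at 8 h and 1.89, 1.87 and 1.86 CPM in U2932. The groups were far apart, with a 21.8-fold higher level in DOHH2 (log2 difference 4.45, SE 0.27, adjusted p = 6.60e-12 with edgeR). DUSP2 (PAC-1), a nuclear phosphatase of activated lymphocytes, had 63.7, 76.2 and 71.2 CPM in DOHH2 and 73.0, 90.6 and 111 CPM in U2932. The groups overlapped, and the log2 difference of -0.38 (SE 0.15, adjusted p = 0.0272 with edgeR) was lost when 1 library was left out: DOHH2 DMSO 8 h replicate 1 (-0.31, adjusted p = 0.102), its replicate 3 (-0.39, adjusted p = 0.0549) or U2932 DMSO 8 h replicate 3 (-0.22, adjusted p = 0.209). DUSP1 (MKP-1), which acts on p38, JNK and ERK, had 5.14, 5.03 and 5.24 CPM in DOHH2 and 7.81, 3.82 and 5.85 CPM in U2932, values that overlapped (log2 difference -0.18, interval -0.65 to 0.29, adjusted p = 0.486 with edgeR). Its promoter holds the full cyclic AMP response element shown above.

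**Figure D2:**
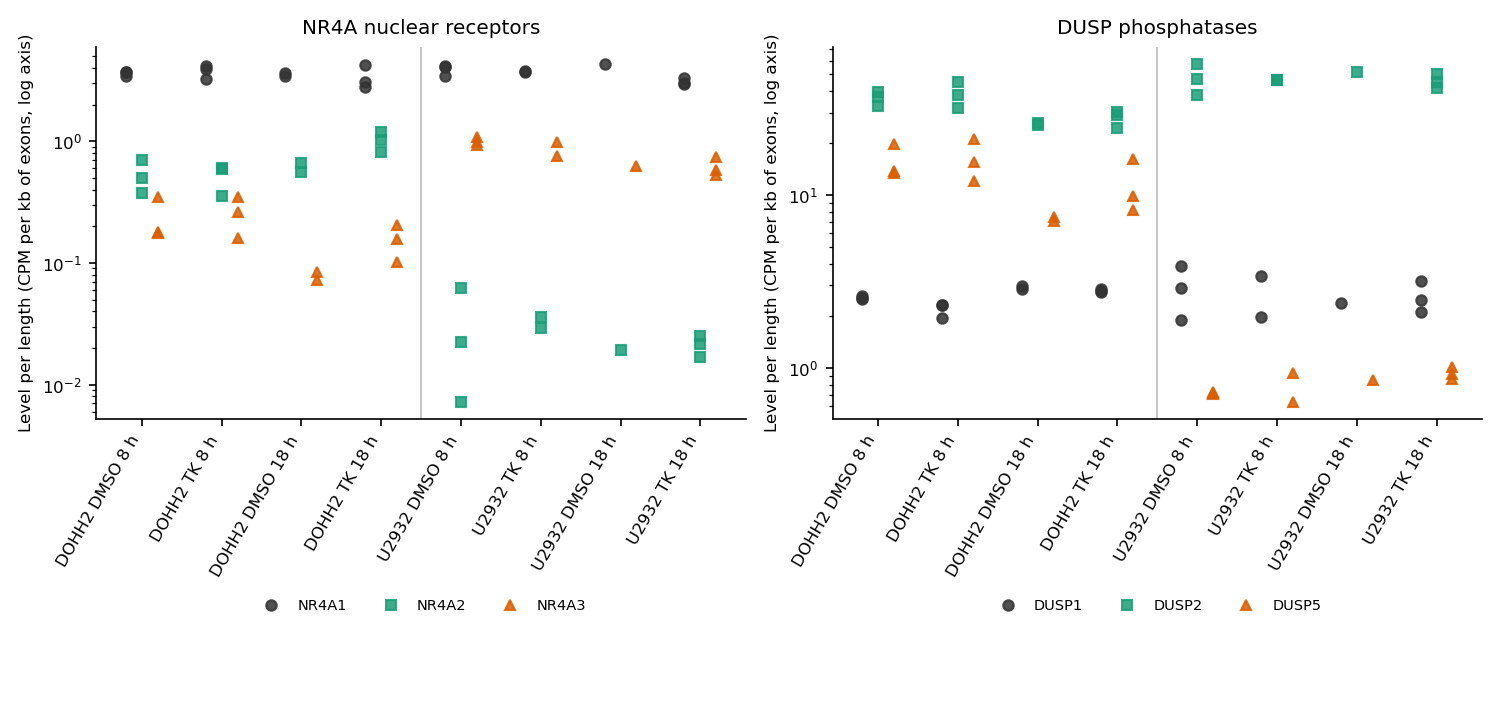
Levels per length (TMM-scaled CPM per kb of exons, log axes) of the NR4A receptors (left) and the DUSP phosphatases (right); points are libraries, in 8 groups with DOHH2 to the left of the grey line. NR4A2 lies above NR4A3 in DOHH2 and below it in U2932, and DUSP5 lies above DUSP1 in DOHH2 and below it in U2932.

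ZFP36, the decay factor, had 73.7, 95.1 and 89.5 CPM in DOHH2 and 25.2, 28.5 and 31.9 CPM in U2932 in DMSO at 8 h. It was 3.02-fold higher in DOHH2 (log2 difference 1.59, SE 0.16, adjusted p = 2.53e-08 with edgeR), with no overlap. KLF6 had 14.9, 16.0 and 14.1 CPM in DOHH2 and 32.7, 24.2 and 25.5 CPM in U2932, and was 1.83-fold lower in DOHH2 (log2 difference -0.87, SE 0.15, adjusted p = 2.57e-05 with edgeR). IER2 had 35.6, 42.0 and 42.9 CPM against 37.1, 40.2 and 49.8 CPM. The IER2 values overlapped, with a log2 difference of -0.08 (interval -0.47 to 0.31, adjusted p = 0.733 with edgeR).

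With TK at 18 h, a comparison of other libraries, 5 of the 9 genes passed (3 higher and 2 lower in DOHH2), beside 69.2% of all genes tested. NR4A2 (log2 difference 5.56, SE 0.43), DUSP5 (3.60, SE 0.26) and ZFP36 (1.88, SE 0.16) were again higher in DOHH2, and NR4A3 (-1.97, SE 0.30) and DUSP2 (-0.71, SE 0.15) were lower, each with groups that did not overlap. Their largest adjusted p was 0.000255, that of DUSP2 (edgeR). The share of all genes with no overlap between these groups was not counted. For DUSP2 the DOHH2 libraries had 55.9, 58.7 and 47.5 CPM and the U2932 libraries 80.5, 96.8 and 87.3 CPM. KLF6 had 13.4, 16.5 and 16.2 CPM in DOHH2 and 21.9, 16.1 and 17.6 CPM in U2932, values that now overlapped, with a log2 difference of -0.27 (interval -0.57 to 0.04, adjusted p = 0.112 with edgeR). Without U2932 TK 18 h replicate 2 the KLF6 difference was -0.37 (adjusted p = 0.0493). IER2 had a log2 difference of -0.08 (adjusted p = 0.713). Without DOHH2 TK 18 h replicate 1, the library with the most counts lacking a unique alignment and the highest IER2 level (49.8 CPM), it was -0.39 (adjusted p = 0.0382 with edgeR). NR4A1 (0.12) and DUSP1 (0.12) did not pass.

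**Figure D3:**
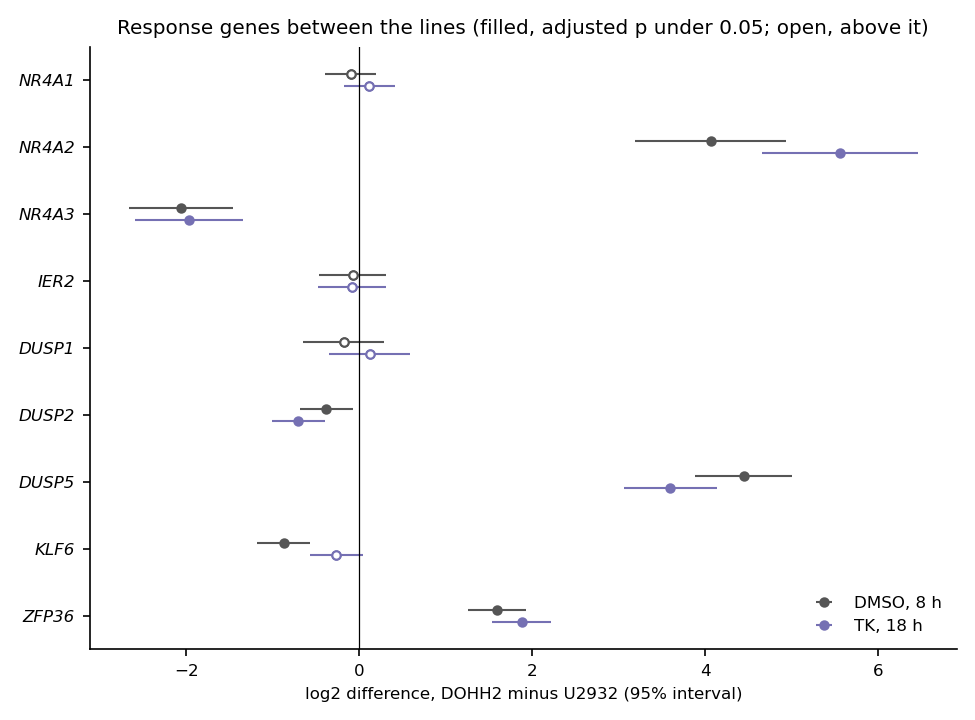
Log2 difference of the 9 tested genes, DOHH2 minus U2932, in DMSO at 8 h and with TK at 18 h (x axis; bars are 95% intervals; filled points have an adjusted p under 0.05 with edgeR). NR4A2, DUSP5 and ZFP36 lie to the right of 0 and NR4A3 and DUSP2 to the left in both comparisons.

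None of the 9 genes passed the test of TK against DMSO in either line at either time with edgeR's quasi-likelihood test. The share of all tested genes that passed was also small. At 8 h it was 0% (0 of 16478 genes) in each line. At 18 h it was 0.0728% (12 genes) in DOHH2 and 0.0182% (3 genes) in U2932. DESeq2 called 0 of the 9 in these 4 comparisons too, beside 0% of the genes it gave an adjusted p at 8 h in each line, and 0.73% in DOHH2 and 0.5% in U2932 at 18 h. At 18 h limma voom with quality weights did call members, NR4A2 and NR4A3 in DOHH2 and NR4A1 in U2932. The numbers of all genes it called are given with the alternatives at the end. Without adjustment, 0 of the 9 had a p under 0.05 at 8 h (beside 3.02% of all genes in DOHH2 and 1.67% in U2932), 3 in DOHH2 at 18 h (beside 8.56% of all genes) and 1 in U2932 at 18 h (beside 7.45%). On simulated counts with these library sizes, 73% of 2-fold changes in DOHH2 at 8 h and 68% at 18 h were recovered, and in U2932 65% and 46%. The changed genes were drawn at random from all genes above a low mean count, and 4-fold changes were planted beside them. These shares therefore do not give the recovery for the 9 members, some of which varied more than most genes of like level.

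At 8 h the changes were small in both lines. In DOHH2 the 9 log2 changes ran from -0.22 (DUSP1) to 0.12 (NR4A3), with a median of -0.04 beside 0.01 over all genes. In U2932 they ran from -0.20 (NR4A3) to 0.13 (DUSP5), with a median of -0.11. For DUSP1 the DOHH2 TK libraries had 3.91, 4.67 and 4.69 CPM, all below the 5.03 to 5.24 CPM of DMSO, but the change did not pass (adjusted p = 1 with edgeR) and its interval ran from -0.69 to 0.26. The share of all genes whose groups separated as those of DUSP1 did was not counted. NR4A1, often used as a read-out of antigen receptor signalling, had 30.4, 28.6 and 23.7 CPM with TK in DOHH2, around the DMSO values (log2 change 0.06, interval -0.24 to 0.36). Without DOHH2 TK 8 h replicate 1 the change of NR4A3 was 0.36 in place of 0.12, and none of the 9 passed. With each library left out in turn, the NR4A3 change ran from -0.18 (without DOHH2 TK 8 h replicate 2) to 0.54 (without DOHH2 DMSO 8 h replicate 2).

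At 18 h in DOHH2, NR4A2, NR4A3, DUSP5 and ZFP36 had TK libraries that all lay above both DMSO libraries. None of them passed the test with edgeR, and the share of all genes whose groups separated in this way was not counted. NR4A3 had 0.637, 1.29 and 0.984 CPM with TK (22, 69 and 30 counts) and 0.458 and 0.527 CPM in DMSO (15 and 22 counts), a log2 change of 0.996 (SE 0.41, adjusted p = 0.501 with edgeR). NR4A2 had 3.22, 4.74 and 4.04 CPM with TK and 2.23 and 2.61 CPM in DMSO, a log2 change of 0.73 (SE 0.32, adjusted p = 0.544 with edgeR). DUSP5 had 42.2, 25.8 and 21.4 CPM with TK and 19.4 and 18.6 CPM in DMSO, a log2 change of 0.65 (SE 0.25, adjusted p = 0.486 with edgeR). ZFP36 had 93.4, 85.7 and 84.4 CPM against 64.4 and 77.1 CPM (0.31, SE 0.18, adjusted p = 0.666 with edgeR). The other 5 log2 changes ran from -0.09 (NR4A1) to 0.20 (IER2), and the median of all 9 was 0.20 beside 0.02 over all genes.

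These values depended on which libraries entered. The highest DUSP5 value with TK was replicate 1, the library with 56.6% of counts not uniquely aligned, and without it the DUSP5 change was 0.31 (adjusted p = 0.603), while that of NR4A3 was 1.22 and that of NR4A2 was 0.86. The same library had the highest NR4A1 (30.7 CPM against 22.4 and 20.2) and IER2 levels (49.8 CPM against 29.2 and 28.9) and the lowest NR4A2 and NR4A3 levels of its group. Its part in these values beyond that was not tested. With DMSO at 8 h and 18 h pooled as the control, the changes of NR4A3 (-0.16) and DUSP5 (-0.11) turned negative, and NR4A2 stayed at 0.84 (adjusted p = 0.179 with edgeR). That control held 3 DMSO libraries of 8 h and 2 of 18 h, so effects of TK and of time are mixed in it.

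In U2932 at 18 h the only DMSO library limited the comparison, and its spread was taken from the other groups. NR4A1 had 22.2, 24.1 and 21.3 CPM with TK and 31.5 CPM in DMSO, a log2 change of -0.48 (SE 0.20, adjusted p = 0.591 with edgeR). The TK libraries also lay below each of the 3 DMSO libraries at 8 h, and with DMSO of both times as the control the change was -0.37 (adjusted p = 0.0806). That control also moved KLF6 from -0.09 to -0.46 (adjusted p = 0.0572) and NR4A3 from -0.02 to -0.55 (adjusted p = 0.186), and with it 1654 of all genes tested passed with edgeR, against 3. The pooled control held 3 DMSO libraries of 8 h and 1 of 18 h, while all TK libraries were of 18 h. Effects of TK and of time are therefore mixed in it. From 8 h to 18 h in U2932 DMSO the log2 changes were -0.48 for KLF6, -0.68 for NR4A3 and 0.15 for NR4A1. NR4A2 stayed at 3 counts in each TK library and 4 in DMSO at 18 h. Its log2 change against that DMSO library had a wide interval (-1.84 to 2.02). Against the DMSO library of 18 h alone, the other 7 log2 changes ran from -0.29 (ZFP36) to 0.13 (DUSP5).

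**Figure D4:**
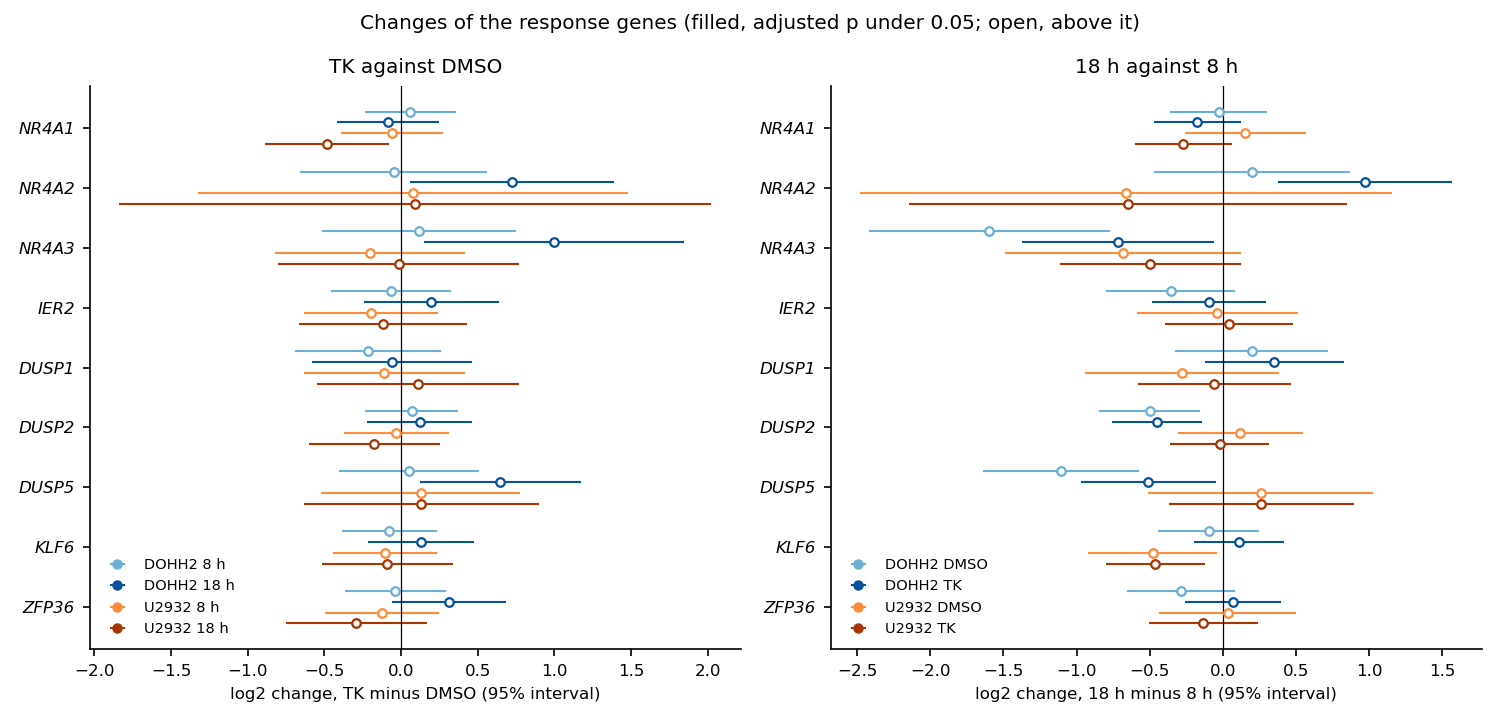
Log2 changes of the 9 tested genes (x axes; bars are 95% intervals) for TK minus DMSO (left) and for 18 h minus 8 h (right), coloured by line with time or treatment. All points are open, since none had an adjusted p under 0.05 with edgeR, and the intervals of NR4A3 and DUSP5 in DOHH2 DMSO over time lie furthest below 0.

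Over time, values in DOHH2 ran lower for NR4A3, DUSP2 and DUSP5 at 18 h than at 8 h without passing the test. In DMSO, 0 of the 9 passed with edgeR, beside 0.631% of all genes tested (104 genes), and 3 had an unadjusted p under 0.05, beside 10.8% of all genes. DESeq2 called 2, NR4A3 and DUSP5, beside 1.97% of the genes it gave an adjusted p. NR4A3 had 0.458 and 0.527 CPM at 18 h and 1.11, 2.21 and 1.13 CPM at 8 h, a log2 change of -1.60 (SE 0.40, interval -2.42 to -0.77, adjusted p = 0.0819 with edgeR). DUSP5 had 19.4 and 18.6 CPM at 18 h against 35.9 to 51.8 CPM at 8 h, a log2 change of -1.11 (SE 0.26, interval -1.64 to -0.57, adjusted p = 0.0508 with edgeR). DUSP2 had 49.0 and 50.5 CPM at 18 h against 63.7 to 76.2 CPM at 8 h (-0.50, SE 0.17, adjusted p = 0.222 with edgeR). In all 3 genes the times did not overlap, and the share of all genes with no overlap was not counted. Without replicate 1 of both DOHH2 TK groups, an alternative chosen after seeing the data that leaves these DMSO libraries in place, NR4A3 (-1.60, adjusted p = 0.0169) and DUSP5 (-1.11, adjusted p = 0.00742) passed with edgeR, beside 1.84% of all genes. Over the alternatives the adjusted p of DUSP5 ran from 4.08e-06 to 0.479 and that of NR4A3 from 0.000597 to 0.590.

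With TK in DOHH2, 0 of the 9 passed between 18 h and 8 h with edgeR, beside 1.57% of all genes (258 genes), and 4 had an unadjusted p under 0.05, beside 18.0%. DESeq2 called 2, NR4A2 and DUSP2, beside 6.63% of its genes. NR4A2 had 3.22 to 4.74 CPM at 18 h and 1.40, 2.38 and 2.33 CPM at 8 h, a log2 change of 0.97 (SE 0.29, interval 0.38 to 1.57, adjusted p = 0.0849 with edgeR) with no overlap. DUSP2 had 47.5 to 58.7 CPM at 18 h and 72.9, 86.7 and 61.8 CPM at 8 h (-0.45, SE 0.15, adjusted p = 0.113 with edgeR). NR4A3 (-0.72, SE 0.31) and DUSP5 (-0.51, SE 0.22) had adjusted p values of 0.233 and 0.227. Without TK 18 h replicate 1, DUSP5 was at -0.84 and passed (adjusted p = 0.0434 with edgeR), and without TK 8 h replicate 3, DUSP2 was at -0.56 and passed (adjusted p = 0.0308). The comparison of TK with DMSO at 18 h and those over time share libraries: the DMSO libraries at 18 h are the low arm of the first for NR4A3 and DUSP5 and the later arm of the second.

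In U2932 the gene with the smallest p over time, with TK and in DMSO, was KLF6. It had 21.9, 16.1 and 17.6 CPM with TK at 18 h and 25.7 and 25.3 CPM at 8 h, a log2 change of -0.46 (SE 0.16, adjusted p = 0.143 with edgeR). In DMSO it had 19.7 CPM at 18 h and 24.2 to 32.7 CPM at 8 h (-0.48, SE 0.21, adjusted p = 0.399 with edgeR). The 18 h libraries were below all 8 h libraries in both, and the share of all genes so separated was not counted. With edgeR 0 of the 9 passed with TK, beside 0.218% of all genes (36 genes), and 0 in DMSO, beside 0.0364% (6 genes). KLF6 was also the only 1 of the 9 with an unadjusted p under 0.05 in either, beside 18.7% of all genes with TK and 11.4% in DMSO, so this share was no higher than the background. DESeq2 called 0 in both, beside 7.37% and 1.34% of its genes. Of the 3 genes whose values ran lower at 18 h in DOHH2, NR4A3 had log2 changes of -0.50 with TK (adjusted p = 0.374) and -0.68 in DMSO (adjusted p = 0.505 with edgeR) in U2932, with 18 h values below all 8 h values in both. DUSP2 had changes of -0.02 with TK and 0.12 in DMSO there, and DUSP5 of 0.26 in both.

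The difference of the TK change between the lines or between the times passed for 0 of the 9 with edgeR and with DESeq2. Of all genes tested, 0% passed for DOHH2 minus U2932 at 8 h and 0.0243% (4 genes) at 18 h, and for 18 h minus 8 h 0.0121% (2 genes) in DOHH2 and 0.00607% (1 gene) in U2932. DESeq2 called, in that order, 0%, 0.14%, 0.0425% and 0.00607% of its genes. ZFP36 alone had an unadjusted p under 0.05, for DOHH2 minus U2932 at 18 h, where 6.17% of all genes had one (0.60, SE 0.28, interval 0.01 to 1.19, adjusted p = 0.785 with edgeR). Its TK values were above DMSO in DOHH2 and below it in U2932 (23.0, 25.1 and 23.6 against 29.2 CPM). For NR4A3 the same difference was 1.01 (interval -0.13 to 2.16, adjusted p = 0.821 with edgeR).

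Of other genes of the pathway, in 6 lists chosen with earlier results of these data known, 74 were tested and 0 passed for TK against DMSO in either line at either time with edgeR, beside the 0 to 0.0728% of all genes given above. In DMSO at 8 h, 25 of the 74 were higher and 35 lower in DOHH2, beside 67.8% of all genes that passed in either direction. Of these, 2 of 6 other MAP kinase phosphatases were higher in DOHH2 and 4 lower. DUSP7 had 86.1 against 27.5 CPM (log2 difference 1.65, SE 0.14) and DUSP10 2.38 against 7.19 CPM (-1.59, SE 0.17), while DUSP4 had 0.0328 against 1.14 CPM. Of 8 Sprouty and other feedback genes, 2 were higher and 5 lower. SPRY4, an inhibitor of receptor tyrosine kinase signals, had 6.11 against 0.0560 CPM, and ERRFI1, an inhibitor of EGFR family receptors, 0.131 against 9.40 CPM. Of 11 AP-1 and EGR factors, 2 were higher and 5 lower, with EGR1 (1.35 against 20.4 CPM), FOS (0.317 against 3.03 CPM) and EGR3 (1.65 against 12.1 CPM) among the lower. Among 10 relatives of KLF6 and ZFP36, 3 were higher and 6 lower. KLF7 (20.2 against 0.0480 CPM) and KLF2 (10.2 against 0.0651 CPM) had at most a trace in U2932, and KLF11 (0 against 3.69 CPM) had no counts in the 3 DOHH2 libraries. Of 22 other early response genes 12 were higher and 8 lower, and of 17 kinases and factors upstream 4 were higher and 7 lower, among the last NFATC2 (0.0480 against 100 CPM), a calcium-regulated factor.

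For TK against DMSO at 18 h in DOHH2, the median log2 changes of these lists were 0.65 for the other phosphatases, 0.32 for the feedback genes, 0.21 for the KLF and ZFP36 relatives, 0.68 for the AP-1 and EGR factors, 0.40 for the other early response genes and -0.03 for the upstream genes. Over all genes the median was 0.02. Of the 22 other early response genes, 21 had a positive change, beside 52.9% of all genes. The DMSO libraries at 18 h, the control of this comparison, were themselves low for these genes: from 8 h to 18 h in DMSO, 2 of the 22 had a positive change and the median was -0.69, and that of the AP-1 and EGR factors was -0.54. The part of this in the changes with TK was not tested. The smallest p in each list belonged, in that order, to DUSP10 (0.71, SE 0.20), ETV5 (2.38, SE 0.84), KLF2 (-1.03, SE 0.24), ATF3 (0.95, SE 0.22), BTG1 (0.61, SE 0.14) and RXRA (0.86, SE 0.41). ATF3 and BTG1 had the lowest adjusted p among these, 0.137 with edgeR. In U2932 at 18 h the same medians ran from -0.29 to 0.18.

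Over time in DMSO, 1 of the 74 related genes rose in DOHH2 and 4 fell, beside 0.631% of all genes that passed. KLF2, a factor that maintains lymphocyte quiescence, rose from 10.2 to 25.9 CPM (log2 change 1.34, SE 0.24, adjusted p = 0.00908 with edgeR). CCL4, a chemokine, fell from 4.36 to 1.14 CPM (-1.93, SE 0.37). TNFAIP3 (151 to 60.8 CPM) and NFKBIA (144 to 67.3 CPM), a pair of inhibitors of NF-kB signalling, fell as well, and the fourth was GADD45B. With TK, CCL4 (-1.54), NFKBIA (-0.83) and GADD45B (-0.72) fell between 8 h and 18 h, 3 of the 74 beside 1.57% of all genes, and no related gene passed the test over time in U2932.

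Across libraries of 1 group the genes did not keep a common level. On log2 CPM centred within each line, DOHH2 DMSO 8 h replicate 2 and TK 8 h replicate 2 had the highest means over the 9 genes (0.30 in each), with NR4A3 at 1.01 in both and DUSP5 at 0.68 and 0.77. The DOHH2 DMSO 18 h libraries had the lowest means (-0.31 and -0.24), with NR4A3 at -1.14 and -0.95. The residual SD within groups was 0.32 for DUSP5, more than in 87.4% of the genes of like level, and for IER2 (0.26) and NR4A2 (0.48) it was above that of 81.0% and 80.8%. KLF6 (0.17) was above only 37.0%. DUSP1 had an SD of 0.102 CPM over the DOHH2 DMSO 8 h libraries and 1.99 CPM over those of U2932.

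**Figure D5:**
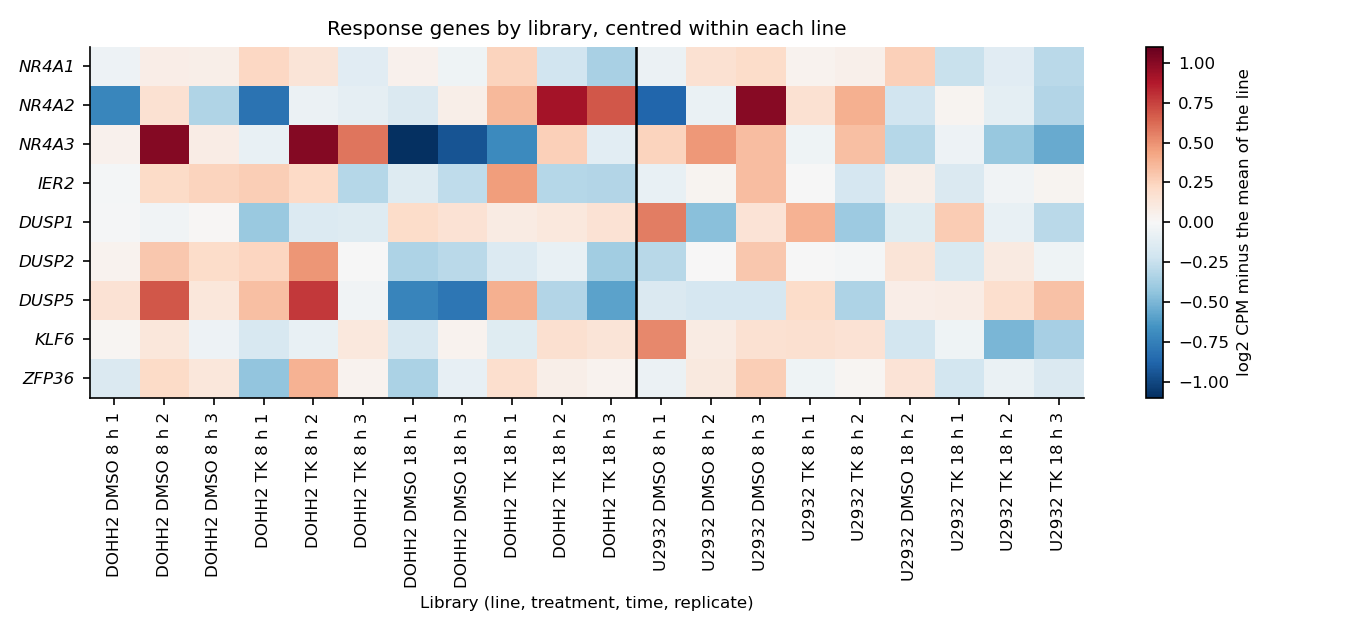
Log2 CPM of the 9 tested genes (rows) in the 20 libraries (columns), each centred on its mean over the libraries of that line; red is above and blue below that mean, and the black line parts DOHH2 (left) from U2932. NR4A3 and DUSP5 are lowest in the DOHH2 DMSO 18 h columns and highest in replicate 2 of the 8 h columns, and NR4A2 is highest in DOHH2 in the TK 18 h columns.

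For the 3 genes with the widest variation on that scale, the genes with the smallest root mean square difference over the 20 libraries were sought. For NR4A2 (SD 0.49) they were MATN1-AS1 (0.30) and TXLNB (0.33), for NR4A3 (SD 0.56) DNAH1 (0.29) and CD83 (0.29), and for DUSP5 (SD 0.41) VASP (0.15) and UNC119 (0.15). The nearest of the other members was ZFP36 for NR4A2 (0.43), and DUSP2 for NR4A3 (0.46) and for DUSP5 (0.29), and 246, 400 and 227 other genes were nearer than that.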

How the data were processed

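The deposited values were whole-number counts per gene, unfiltered, for 20 libraries. Per the submitters' processing notes, the authors used STAR, HTSeq, edgeR and GRCh38.p10, with no versions given. Annotation release and strand setting: not given in the sources used here. Summary counts outside genes (32.7 to 62.7% of all counts) were left out.

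Counts were fitted in R 4.3.3 with edgeR 4.0.16 (TMM, robust quasi-likelihood F test), all libraries and 8 groups together. Genes needed 0.288 CPM, 10 counts in the median library, in at least 3 libraries, which kept 16478 of 34160 genes with a count. Adjusted p-values are Benjamini-Hochberg over these genes, with a threshold of 0.05. Levels are TMM-scaled CPM; levels per length use GENCODE v29 exons. Standard errors came from the test statistic. No 2 libraries of the same group agreed within sampling noise. The fit was tested on simulated data.

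Alternatives were RLE scaling, other filters, a replicate block, fewer libraries, both DMSO times as control, DESeq2 1.42.0, limma voom (3.58.1) and each library left out where its group held another. The members and the related lists were chosen with earlier results of these data known. All 10 members are named; from each related list, up to 3 genes past the threshold with the largest change, or the gene with the smallest p; and the 2 genes most like each member whose SD of centred log2 CPM (prior count 2) was at least 0.3.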

Additional observations from a re-analysis of the deposited data

Results flagged for a closer look

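In 3 results all libraries of 1 group lay on one side in DOHH2 and on the other side in U2932. They came from a search of all members over TK against DMSO at each time and 18 h against 8 h with each treatment. The share of all genes that meet this rule was not counted. The ZFP36 and DUSP5 results both rest on 1 U2932 DMSO library at 18 h. For ZFP36, TK against DMSO at 18 h gave log2 changes of 0.31 in DOHH2 and -0.29 in U2932, a difference of 0.60 that was tested and had an adjusted p of 0.785 with edgeR. For DUSP5 in DMSO, 18 h against 8 h gave -1.11 in DOHH2 and 0.26 in U2932, a difference of -1.36 that was not tested, and U2932 had 1 DMSO library at 18 h. For NR4A2 with TK, 18 h against 8 h gave 0.97 in DOHH2 and -0.65 in U2932, a difference of 1.62 that was not tested, and the U2932 values rest on 3 to 6 counts in a library.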

How the results depend on the processing

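For the line difference in DMSO at 8 h and with TK at 18 h, and for the TK comparisons at 8 h and the differences of TK changes, the number of the 9 genes called stayed within 1.5 times its first value in every alternative run. For TK at 18 h, limma voom with quality weights called 2 in DOHH2 in place of 0 (NR4A2 and NR4A3, beside 1974 of 16478 genes). In U2932 it called 1 in place of 0 (NR4A1, beside 236 of 16478 genes). For DOHH2 DMSO over time the count of 0 became 1 with RLE scaling (DUSP5; 0.631% of all genes), 2 with no filter (1.30%), 2 with DESeq2 (1.97%) and 2 without replicate 1 of both DOHH2 TK groups (1.84%; NR4A3 and DUSP5 each time), 2 with only the groups compared (DUSP2 and DUSP5; 1.63%) and 4 with voom (11.1%), and ran from 0 to 2 when 1 library was left out. For DOHH2 TK over time it became 1 with no filter (2.52% of all genes), 2 with DESeq2 (6.63%) and 5 with voom (24.7%). It ran from 0 to 1 when 1 library was left out. The shares of all genes in the runs with 1 library left out are not given here. For U2932 TK over time it became 1 (KLF6) with voom (9.76%) and 1 without replicate 1 of both DOHH2 TK groups (9.98%). The cause was not tested. Over all genes, leaving out that pair of libraries moved the number called for U2932 TK over time from 36 to 1647 and for DOHH2 TK against DMSO at 18 h from 12 to 75. Replicate numbers were not taken to pair the libraries, since the labels do not tie them to a shared culture or day. Among pairs of libraries with the same number, 11 of 22 had deviations that correlated above 0.1. Their median was 0.11, and the highest was 0.57, for replicate 2 of DOHH2 DMSO and TK at 8 h. Of pairs with different numbers 9 of 44 did (median -0.03). Deviations from a group mean cancel within the group, so these correlations are not independent and cannot decide whether the numbers pair the libraries. The replicate block called 1 gene in DOHH2 TK over time (NR4A2, 0.98, adjusted p = 0.0334 with edgeR, beside 1.68% of all genes) and changed no other count. No called value changed sign. NR4A2 in U2932 (1 to 9 counts in a library) and IER3 are limited by depth.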
